A study of Mus musculus with 8 samples.

Results

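The genes of de novo lipogenesis, the pathway by which the liver builds fatty acids from acetyl-CoA, were followed in livers of db/db mice, which lack a working leptin receptor and become obese and diabetic. 10 genes were chosen by name for their place in this pathway, out of 41388 features in each library: Acly, Me1, Acaca, Acacb, Fasn, Elovl6, Scd1, Gpam, Thrsp and Srebf1. Liver RNA of 8 mice was sequenced, 4 mice given an adenovirus encoding green fluorescent protein (AdGFP) and 4 given one encoding the NAD-salvage enzyme nicotinamide phosphoribosyltransferase (AdNAMPT). Both groups were db/db littermates of strain C57B/6J, randomised at 5 weeks and injected through the tail vein, and all were 10 weeks old. Their sex is not given in the labels, but the study states that its db/db experiments used males. Overexpression lasted 4 to 5 weeks by the series text. The study gives shorter times after injection, in its legend for adipose tissue of such mice and in its general adenovirus methods. The time since injection is therefore not settled here. The db/db genotype is taken from the sample titles, because the genotype label names only the vector or reads control. Every mouse received a virus, so no uninjected db/db or lean liver served as a baseline. Each mouse gave a single library, and the promoter that drove the transferred gene is not given in the sources used here.

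In lipogenesis, citrate leaves the mitochondrion and is split to cytosolic acetyl-CoA, which is carboxylated to malonyl-CoA and joined with it into palmitate at the expense of NADPH. Palmitate is then lengthened, desaturated and attached to glycerol phosphate. In liver the transcription factor SREBP-1c, encoded by Srebf1, carries the insulin signal to these genes, and ChREBP, encoded by Mlxipl, carries the sugar signal, so that transcripts of the pathway are high after feeding and low in fasting. The mRNA measured here is a level, and neither enzyme activity nor lipid synthesis was measured in these files.

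Total counts ran from 12006713 to 19879814 per library. The transferred gene was checked first, and Nampt was at 102.3 to 152.7 CPM in AdGFP and 120.5 to 177.8 CPM in AdNAMPT, groups that overlapped (log2 fold change 0.08, SE 0.15, adjusted p = 0.915 by limma). The study describes its NAMPT adenovirus, in its hepatocyte experiments, as encoding the murine enzyme. A difference in murine Nampt was not detected between the libraries as labelled, and groups are named as labelled. One library, labelled AdNAMPT replicate 1, stood apart: it had the smallest total and the lowest sample weight in the fit, 0.440 where the other 7 had 0.811 to 1.41, and its mean log2 CPM of female-biased liver genes was 1.47 where the other AdNAMPT livers had 4.595 to 4.65 and the AdGFP livers 4.70 to 5.24. AdGFP replicate 2 also differed from its group. Its chi-square per degree of freedom against the other AdGFP libraries was 64 to 78.4, where the remaining AdGFP pairs had 11.3 to 17.6. For the 10 genes and for list counts, values without AdNAMPT replicate 1 are given where that library moved them. Hepatocyte markers such as Alb were abundant in every library, summing to 104488 to 133052 CPM.

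Of the 10 genes, none passed the test across all 12270 genes that passed the filter on low counts (0 of 10 at an adjusted p of at most 0.05, where 0.277% of all tested genes were called, 0.0163% as higher). All 10 passed that filter, and all 10 had a fitted estimate above 0, with a median log2 fold change of 0.49 beside 0.0015 for all tested genes, 50.4% of which were above 0. The genes shared RNA from the same 8 livers and followed nearly one order of mice, so their common sign is one pattern across mice rather than 10 observations. At an unadjusted p below 0.05, limma gave 0 of 10 (9.69% of all tested genes), edgeR 0 of 10 (8%) and DESeq2 0 of 10 (6.85%). Their spread among mice of the same group was wide, and is described after the genes themselves.

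The sequence before the start site is shown for a precursor gene, the chain synthase gene and the transcription factor gene, as examples of the promoters of genes that moved together among livers. RefSeq windows on GRCm38.p6 were at hand for 9 of the 10 genes, 13 windows in all, since Srebf1, Gpam and Me1 have more than one start site. The only start sites at hand for Acaca and Acacb lay 65766 and 18983 bases inside the deposited 5′ end. The sequence before that end was therefore not searched for this pair. Of the others, 1 Me1 start site lay 8676 bases inside that end and 1 Gpam start site 27787 bases upstream of it. The 250 bases before each start were searched on both strands. The sterol response element TCACNCCAC, a form of the site bound by SREBP proteins, was found in 0 of 13 windows and in 1.05% of the 32851 windows of all genes. Other forms of that site were not searched, and a string this rare is seldom met in 13 windows. The count of 0 therefore does not show that SREBP sites were absent. The E-box CACGTG was found in 0 of 13 (6.02% of all windows). An inverted CCAAT box, ATTGG or CCAAT, was found in 7 of 13 windows, belonging to 6 genes (33.8% of all windows). A GC box, GGGCGG or its reverse complement, was found in 5 windows of 4 genes (32.7%), and TATAAA or its reverse complement in 1 window, that of Acacb (12.4%). These are matches of letters within this window and no measure of binding. The 200 bases before the start site are given 5′ to 3′ on the gene's strand, all minus, with CCAAT and GC boxes in capitals, for the fatty acid synthase gene at chr11:120824548-120824747, for the ATP citrate lyase gene at chr11:100528001-100528200 and for the most downstream of the Srebf1 start sites at chr11:60210472-60210671.
Fasn: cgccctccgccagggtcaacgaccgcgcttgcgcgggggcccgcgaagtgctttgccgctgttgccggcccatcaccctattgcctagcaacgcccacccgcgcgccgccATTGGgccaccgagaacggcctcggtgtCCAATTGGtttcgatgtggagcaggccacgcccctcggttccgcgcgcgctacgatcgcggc
Acly: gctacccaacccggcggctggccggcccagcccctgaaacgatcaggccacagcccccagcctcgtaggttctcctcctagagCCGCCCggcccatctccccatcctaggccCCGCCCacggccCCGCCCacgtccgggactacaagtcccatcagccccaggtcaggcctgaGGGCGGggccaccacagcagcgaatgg
Srebf1: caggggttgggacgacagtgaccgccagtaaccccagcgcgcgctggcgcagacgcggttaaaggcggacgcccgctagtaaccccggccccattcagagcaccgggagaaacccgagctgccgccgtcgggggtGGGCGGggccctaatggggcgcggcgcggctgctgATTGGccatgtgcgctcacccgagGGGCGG
The Fasn stretch holds an inverted CCAAT box 90 to 86 bases before the start and a pair that overlap between 62 and 55 bases before it, and no GC box. The Acly stretch holds 4 GC boxes and no CCAAT box. The Srebf1 stretch holds both kinds, with a CCAAT box 30 to 26 bases before the start. The Fasn start site lies 369 bases upstream of the 5′ end in the deposited annotation, that of Acly is at that end, and that of Srebf1 lies 12110 bases inside it.

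The genes that supply cytosolic precursors varied several-fold among mice. Acly, which encodes the ATP citrate lyase that makes cytosolic acetyl-CoA from citrate (ENSMUSG00000020917, chr11:100476353-100528000, minus strand), given here like every gene in the order of replicates 1 to 4, measured 429, 912, 630.3 and 449 CPM in the 4 AdGFP livers and 200.5, 512, 1599 and 1078 CPM in the 4 AdNAMPT livers. AdNAMPT replicates 3 and 4 lay above every AdGFP liver and AdNAMPT replicate 1 below every one, so the groups overlapped. Group means were 605 ± 224 and 847 ± 619 CPM (mean ± SD, n = 4 each). The fitted log2 fold change of Acly was 0.31 (SE 0.43, 95% confidence interval -0.64 to 1.26, adjusted p = 0.863 by limma), and it turned to -0.19 without AdNAMPT replicate 3 and to -0.10 without AdNAMPT replicate 4. Me1, the cytosolic malic enzyme that yields NADPH (ENSMUSG00000032418, chr9:86581371-86695953, minus strand), measured 40.6, 155.4, 87.1 and 60.9 CPM in the 4 AdGFP livers and 60.8, 98.1, 220.6 and 127.8 CPM in the 4 AdNAMPT livers. Its lowest liver was AdGFP replicate 1 and its highest AdNAMPT replicate 3, and AdGFP replicate 2 lay above the other 3 AdNAMPT livers. The Me1 log2 fold change was 0.69 (SE 0.39, interval -0.17 to 1.55, adjusted p = 0.624). An antisense gene, A330041J22Rik, overlaps exons of Me1, and reads in the overlap could not be told apart if strand was not used in counting. As only reads on a single gene were assigned, such reads would be left out where both genes were annotated.

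Both acetyl-CoA carboxylase genes, whose products make malonyl-CoA, followed nearly the same order of mice. Acaca, the cytosolic form that feeds chain synthesis (ENSMUSG00000020532, chr11:84129672-84401651, plus strand), measured 68.6, 121.1, 101.1 and 67.7 CPM in the 4 AdGFP livers and 42.9, 101.4, 228.5 and 161.6 CPM in the 4 AdNAMPT livers. Acacb, the form at the mitochondrial surface whose malonyl-CoA restrains fatty acid entry (ENSMUSG00000042010, chr5:114146535-114250761, plus strand), measured 84.1, 151.6, 124.5 and 99.7 CPM in the 4 AdGFP livers and 67.1, 109.5, 344.2 and 281.5 CPM in the 4 AdNAMPT livers. For both genes AdNAMPT replicates 3 and 4 were above every AdGFP liver, AdNAMPT replicate 2 within the AdGFP range and AdNAMPT replicate 1 below it. Log2 fold changes were 0.49 for Acaca (SE 0.34, adjusted p = 0.691) and 0.58 for Acacb (SE 0.38, adjusted p = 0.668). Per length, Acaca was the lower of the pair in each library, at 0.365 to 0.589 of the Acacb RPKM.

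Fasn encodes the multifunctional synthase that joins malonyl-CoA units into palmitate (ENSMUSG00000025153, chr11:120805940-120824178, minus strand), and its promoter stretch is given above. It measured 769, 2286, 1335 and 1024 CPM in the 4 AdGFP livers and 508, 1605, 4388 and 3642 CPM in the 4 AdNAMPT livers. Group means were 1354 ± 663 and 2536 ± 1792 CPM, and the livers within AdNAMPT differed by up to 8.63-fold where those within AdGFP differed by up to 2.97-fold. AdNAMPT replicate 1 was the lowest of all 8 livers and replicate 3 the highest. The Fasn log2 fold change was 0.81 (SE 0.48, interval -0.24 to 1.86, adjusted p = 0.636), and 1.28 (SE 0.37, unadjusted p = 0.0056, adjusted p = 0.279) without AdNAMPT replicate 1 by the same limma fit. Without AdNAMPT replicate 3 it was 0.34 (SE 0.43).

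Elovl6 and Scd1 encode the enzymes that lengthen palmitate to stearate and introduce the double bond of oleate and palmitoleate. Elovl6 (ENSMUSG00000041220, chr3:129532386-129638495, plus strand) measured 199.2, 732, 417 and 342 CPM in the 4 AdGFP livers and 118.3, 325.4, 877 and 724 CPM in the 4 AdNAMPT livers. Only AdNAMPT replicate 3 exceeded the highest AdGFP liver. Its log2 fold change was 0.24 (SE 0.48, adjusted p = 0.920), and the sign changed to -0.085 without sample weights and to -0.22 without AdNAMPT replicate 3. Exons of Elovl6 overlap the antisense gene Gm35986, with the same limit as for Me1. Scd1, the main stearoyl-CoA desaturase of liver (ENSMUSG00000037071, chr19:44394451-44407709, minus strand), measured 1949, 18115, 6551 and 5123 CPM in the 4 AdGFP livers and 2630, 13264, 22888 and 19071 CPM in the 4 AdNAMPT livers. AdGFP replicate 2 lay near the 2 highest AdNAMPT livers and AdNAMPT replicate 1 near the lowest AdGFP liver, a span of 11.7-fold over the 8 mice that no other gene of the 10 reached. Group means were 7935 ± 7054 and 14463 ± 8826 CPM. Scd1 had the highest estimate of the 10, with a log2 fold change of 1.29 (SE 0.65, interval -0.13 to 2.71, unadjusted p = 0.0711, adjusted p = 0.563 by limma), a 2.44-fold difference with an interval from 0.913-fold to 6.54-fold. Scd1 has close paralogues, and reads they share are absent from counts of unique reads.

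Gpam encodes the mitochondrial acyltransferase that puts the first fatty acid on glycerol phosphate (ENSMUSG00000024978, chr19:55069734-55099451, minus strand). It measured 319, 767, 445 and 367 CPM in the 4 AdGFP livers and 252, 499, 992 and 939.7 CPM in the 4 AdNAMPT livers, with AdNAMPT replicates 3 and 4 above every AdGFP liver and replicate 1 below. The Gpam log2 fold change was 0.49 (SE 0.34, adjusted p = 0.691). Thrsp, or Spot14, a small nuclear and cytosolic protein that responds to thyroid hormone and promotes lipogenesis (ENSMUSG00000035686, chr7:97412938-97417730, minus strand), measured 1125, 2277, 2388 and 1837 CPM in the 4 AdGFP livers and 748, 1723, 3948 and 3265 CPM in the 4 AdNAMPT livers. Unlike the other 9 genes, Thrsp had its highest AdGFP level in replicate 3, though replicates 2 and 3 were close. Its log2 fold change was 0.22 (SE 0.38, adjusted p = 0.893), and -0.15 without AdNAMPT replicate 3.

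Srebf1, the gene of the SREBP-1 transcription factors (ENSMUSG00000020538, chr11:60199089-60222581, minus strand), varied least. It measured 275.9, 376.8, 282.7 and 290.8 CPM in the 4 AdGFP livers and 129.3, 381.4, 406.6 and 411.7 CPM in the 4 AdNAMPT livers. On CPM, AdNAMPT replicates 2, 3 and 4 were above every AdGFP liver and AdNAMPT replicate 1 was below every one. On that scale this 1 library decided whether the groups overlapped. TMM scaling, used in the fit, raises AdGFP replicate 2 (factor 0.947) and lowers AdNAMPT replicates 2 and 3 (1.02 and 1.05). The separation of the other livers therefore holds on CPM only. With all 8 livers the log2 fold change was 0.12 (SE 0.24, interval -0.41 to 0.65, adjusted p = 0.920), and its sign depended on the sample weights, being -0.14 without them. Without AdNAMPT replicate 1 it was 0.34 (SE 0.11, unadjusted p = 0.0125, adjusted p = 0.348 by limma). It was 0.06 (SE 0.26) without AdNAMPT replicate 3 and 0.0067 (SE 0.27) without AdNAMPT replicate 4. Srebf1 exons overlap Rai1 on the other strand and Mir6922 on the same strand. Counts per gene do not separate the SREBP-1a and SREBP-1c transcripts.

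**Figure D1:**
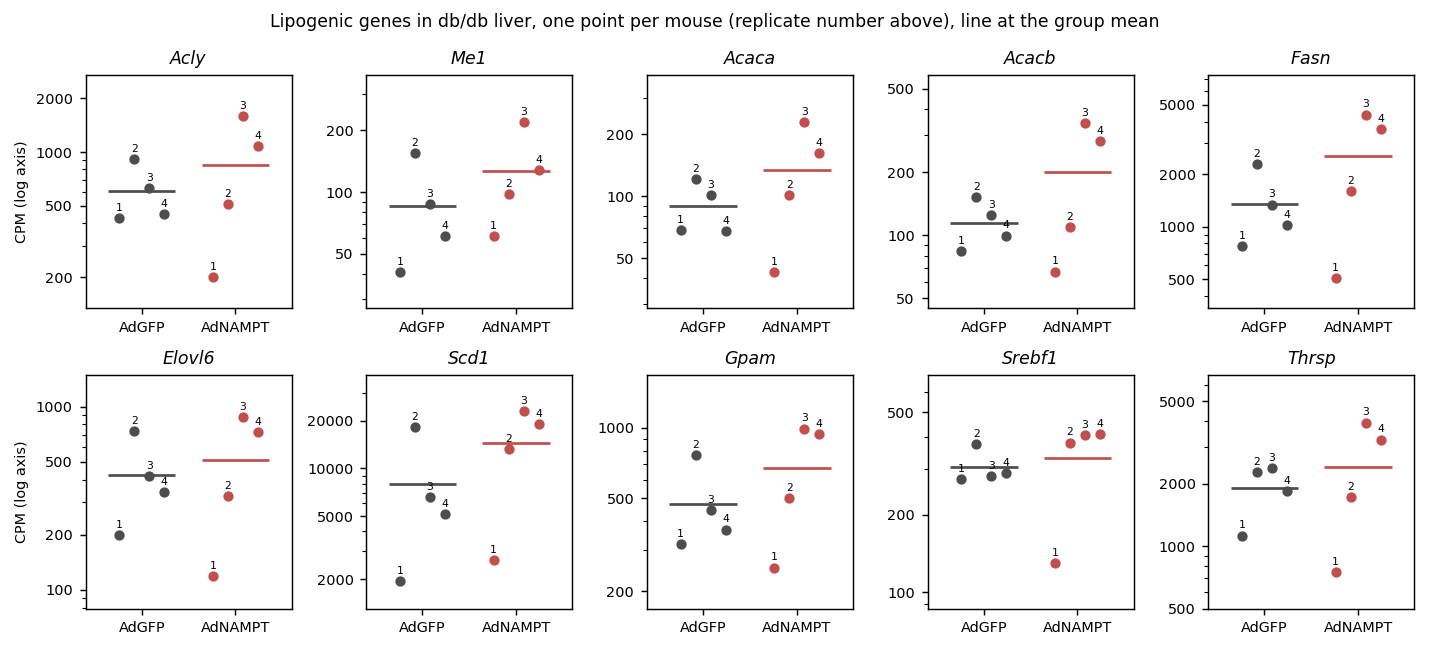
CPM on a log axis for each of the 10 lipogenic genes in each mouse, AdGFP and AdNAMPT side by side, with points numbered by replicate and lines at group means. AdNAMPT replicate 3 was the highest liver for 9 genes and AdNAMPT replicate 1 the lowest for 8, and the groups overlapped for all 10.

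**Figure D2:**
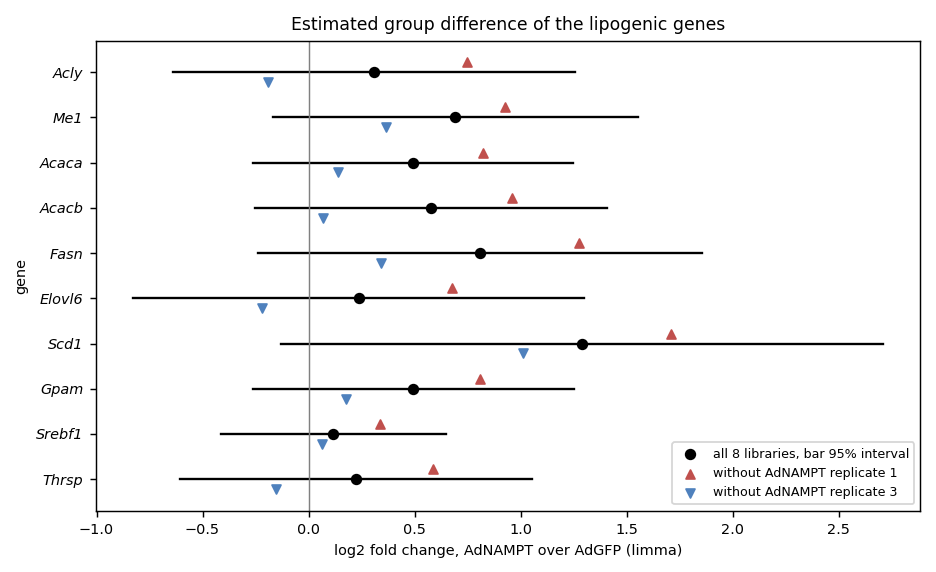
Fitted log2 fold change of AdNAMPT over AdGFP for each lipogenic gene with its 95% confidence interval, from all 8 libraries (circles), with triangles for the fits without AdNAMPT replicate 1 (up) and without AdNAMPT replicate 3 (down). All 10 intervals from 8 libraries included 0, and estimates ran from 0.12 for Srebf1 to 1.29 for Scd1.

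The groups overlapped for all 10 genes, and non-overlap on CPM was itself uncommon, at 8.22% of tested genes (7.36% with AdNAMPT higher). TMM factors were below 1 in each AdGFP library and above 1 in each AdNAMPT library, 0.947 to 1.05 in all, so that CPM by library size alone set the median of all genes 0.09 higher on the log2 scale in AdNAMPT. On TMM-scaled values 4.79% of genes did not overlap. With that scaling by library size alone, the median of the 10 genes was 0.57.

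The choice of livers moved the result more than the choice of tool. Without AdNAMPT replicate 1, 8 of the 10 genes had an unadjusted p below 0.05, against 5.42% of all genes tested in that fit that did so with AdNAMPT higher (10.5% in either direction), and the median log2 fold change was 0.82. Elovl6 and Thrsp were the other 2, with log2 fold changes of 0.68 (SE 0.40) and 0.58 (SE 0.30). None of the 10 passed the adjusted threshold there, which 0.305% of all genes did. Without AdNAMPT replicate 2, 5 of 10 had an unadjusted p below 0.05 (10.4% of all genes, 5.23% with AdNAMPT higher) and the median was 0.84, and none passed the adjusted threshold (0.241% of all genes). Without AdGFP replicate 2, 2 of 10 had an unadjusted p below 0.05 (9.84% of all genes, 4.63% with AdNAMPT higher) and again none passed the adjusted threshold (0.264%). In the other direction, without AdNAMPT replicate 3 the median fell to 0.10 and 7 of 10 estimates were above 0, and without AdNAMPT replicate 4 they were 0.15 and 7 of 10. Leaving out the lowest liver of a group for these genes raises that group's mean by construction, as leaving out the highest lowers it.

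Among mice, the 10 genes moved in nearly one order. AdNAMPT replicate 3 was highest for 9 genes and AdNAMPT replicate 4 for Srebf1. AdNAMPT replicate 4 came second for 7 genes, AdNAMPT replicate 3 for Srebf1, and AdGFP replicate 2 for Elovl6 and Me1. At the lower end AdNAMPT replicate 1 was lowest for 8 genes and AdGFP replicate 1 for Scd1 and Me1, and AdGFP replicate 1 was next to lowest for 7 of the rest. Summed over the 10 genes, the level was 5261, 25894, 12362 and 9661 CPM in the 4 AdGFP livers and 4757, 18620, 35892 and 29702 CPM in the 4 AdNAMPT livers. Scd1 alone made up between 37.0% and 71.2% of that sum. Leaving Scd1 out, the sums were 3312, 7779, 5810 and 4539 CPM in AdGFP and 2127, 5356, 13004 and 10631 CPM in AdNAMPT, with the same 2 livers at the top. As a description over 8 livers, each gene was correlated with the mean standardised level of the other 9, and Pearson's r was highest for Fasn, 0.992, and lowest for Srebf1, 0.83, with Me1 at 0.883. These correlations share library and scaling factor, and they include any difference between the groups.

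**Figure D3:**
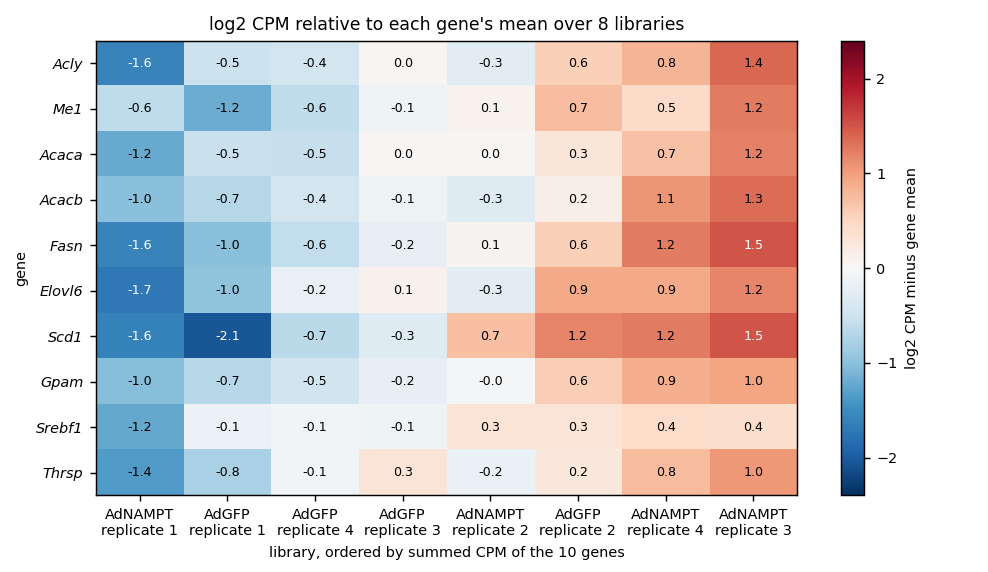
Heat map of the 10 lipogenic genes in the 8 livers, ordered by the summed CPM of the genes, coloured by log2 CPM relative to each gene's mean over the livers (log2 units). Columns for AdNAMPT replicates 3 and 4 and AdGFP replicate 2 are high in most rows, and those for AdNAMPT replicate 1 and AdGFP replicate 1 are low.

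Spread within groups was wide for every gene. The within-group SD of log2 CPM was 0.61 for Srebf1, the smallest, and 1.39 for Scd1, the largest, with a median of 0.84 where the median over all tested genes was 0.18. The 95th percentile of all tested genes was 0.55, and all 10 genes lay above it, 9 of them above the 98th percentile. The genes had 515 to 455016 reads in a library. With all 8 livers, the spread in AdNAMPT was wider than in AdGFP for 9 of the 10 genes as SD of log2 CPM, for example 1.42 and 0.69 for Fasn and 0.83 and 0.23 for Srebf1, while Me1 had 0.77 and 0.84. The AdNAMPT values include AdNAMPT replicate 1, the lowest liver for 8 of the 10 genes. Without that library the median within-group SD of the 10 genes was 0.64. With any other library left out it was 0.78 to 0.92. The SD of each group without AdNAMPT replicate 1 was not computed, and the difference in spread between the groups was not tested.

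**Figure D4:**
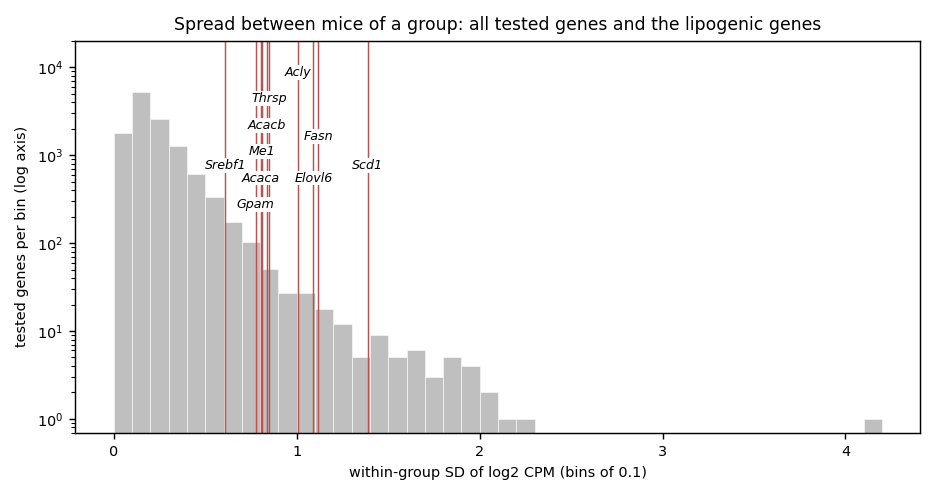
Histogram of the within-group SD of log2 CPM over 12270 tested genes (bins of 0.1, log axis of gene counts), with lines at the 10 lipogenic genes. All 10 lines lie right of 0.55, the 95th percentile, from Srebf1 at 0.61 to Scd1 at 1.39.

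Ratios between genes also differed among livers. Scd1 stood at 2.53, 7.92, 4.91 and 5.00 times the Fasn CPM in the 4 AdGFP livers and at 5.17, 8.26, 5.22 and 5.24 times in the 4 AdNAMPT livers. The ratio was highest in replicate 2 of each group, and the group ranges overlapped. Fasn stood at 2.79, 6.07, 4.72 and 3.52 times the Srebf1 CPM in AdGFP and at 3.93, 4.21, 10.8 and 8.85 times in AdNAMPT. The AdNAMPT replicates 3 and 4 thus had the highest Fasn for a similar Srebf1 transcript level to AdNAMPT replicate 2, at 381.4 to 411.7 CPM in the 3 livers.

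Per length, in deposited RPKM, Scd1 and Thrsp were the most abundant of the 10, with medians over the 8 livers of 2049 (403 to 4733) and 1611 (586 to 3091). Scd1 exceeded Thrsp in 4 of 8 livers, so the order of this pair was not settled. Thrsp exceeded Fasn in 8 of 8. Fasn followed at 149.3 RPKM, Gpam at 123.2 and Acly at 108.2, neighbours whose order held in 6 of 8 livers at each step. Elovl6 at 63.8 RPKM and Srebf1 at 59.2 were in that order in 5 of 8 livers, below Acly in all 8. Me1 at 24.1, Acacb at 12.1 and Acaca at 6.68 RPKM closed the order, each below the one before it in all 8 livers.

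Genes around the pathway were read as lists, from the same fit. Of all tested genes, 9.69% had an unadjusted p below 0.05 with all livers (4.65% with AdNAMPT higher). Without AdNAMPT replicate 1 these shares were 10.5% and 5.42%. Lists were not read with any other library left out, so only removal of the AdNAMPT liver lowest for most of the 10 genes is shown. Regulators of lipogenesis, such as Mlxipl, Nr1h3 for the oxysterol receptor LXR-alpha, and the SREBP-processing genes, had a median log2 fold change of 0.01 over 16 tested genes, 9 above 0. Mid1ip1, a partner of Thrsp that helps acetyl-CoA carboxylase polymerise, was the only one with an unadjusted p below 0.05 (1 of 16), at 47.1 ± 16.8 CPM in AdGFP and 70.6 ± 17.3 CPM in AdNAMPT (log2 fold change 0.70, SE 0.26, adjusted p = 0.453 by limma). Mlxipl itself, named after its values were seen, was at 89.4 ± 4.33 and 94.0 ± 25.2 CPM, with AdNAMPT replicate 1 at 60.2 CPM where the other 7 livers were at 84.0 to 113.8. Without AdNAMPT replicate 1, 1 regulator was higher and 1 lower at an unadjusted p below 0.05. Mbtps1 and Mbtps2, the proteases that release SREBP, had log2 fold changes of -0.12 (SE 0.06) and -0.23 (SE 0.15).

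Genes that bring sugar into the pathway numbered 11, with a median of -0.0055, 5 above 0 and 1 with an unadjusted p below 0.05. Without AdNAMPT replicate 1 the median was 0.08 and 3 had such a p, all higher (5.42% of all genes in that fit). Pklr, the liver pyruvate kinase, had an estimate of 0.31 on the log2 scale (SE 0.18), and Gpi1, glucose phosphate isomerase, 0.24 (SE 0.11).

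Of 16 genes for acetyl-CoA, citrate and NADPH supply, 12 were above 0, the median was 0.07, and 1 had an unadjusted p below 0.05. Without AdNAMPT replicate 1 the median was 0.13 and 5 did, all higher (5.42% of all genes in that fit). The 1 with all livers was Cs, the citrate synthase, at 109.2 ± 4.28 CPM in AdGFP and 135.2 ± 10.0 CPM in AdNAMPT (log2 fold change 0.23, SE 0.07, adjusted p = 0.365 by limma). Mpc1 of the mitochondrial pyruvate carrier and Tkt, the transketolase of the pentose phosphate pathway, had log2 fold changes of 0.16 (SE 0.08) and 0.22 (SE 0.14). Glycerolipid assembly, 17 genes, had a median of 0.09 with 13 above 0 and 1 with an unadjusted p below 0.05, the phosphatidate phosphatase gene Lpin3 (0.30, SE 0.11, adjusted p = 0.453). Without AdNAMPT replicate 1, 5 glycerolipid genes had such a p, all higher, beside the same 5.42% of all genes, and the median was 0.10. The acyltransferases Agpat1 and Agpat2 had log2 fold changes of 0.21 (SE 0.10) and 0.23 (SE 0.12). Pnpla3, a lipid droplet protein and known SREBP-1c target, was named after its values were seen, and measured 0.41, 10.1, 2.21 and 1.75 CPM in the 4 AdGFP livers and 0.25, 4.71, 24.8 and 10.5 CPM in the 4 AdNAMPT livers, lowest and highest in the same livers as most of the 10 genes (log2 fold change 2.0, SE 1.14, adjusted p = 0.627 by limma). Its levels in AdGFP replicate 1 and AdNAMPT replicate 1 lay below the 1 CPM of the filter, near the floor, so its fold change rests partly on few reads.

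Paralogues of the enzymes were represented by 7 tested genes of 12, since Scd3, Scd4, Elovl4, Elovl7 and Me3 did not pass the filter. Their median was 0.41, with 4 of 7 above 0, and 0.27 without AdNAMPT replicate 1, when 3 were higher and 1 lower at an unadjusted p below 0.05. Aacs, which activates acetoacetate for lipid synthesis, had an unadjusted p below 0.05 (log2 fold change 0.78, SE 0.27, adjusted p = 0.425), as did Elovl2, an elongase of polyunsaturated fatty acids, in the other direction (-0.24, SE 0.11, adjusted p = 0.504). Scd2 was at 16.7 ± 6.89 and 40.7 ± 33.8 CPM (1.07, SE 0.58). No gene of any list passed the adjusted threshold.

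Genes on the opposing side had medians of -0.09 and -0.12 in the TMM-scaled fit, where the median of all tested genes was 0.0015. With scaling by library size alone, the median of all genes was 0.09. The part of scaling in these list medians was not tested. Of 10 genes of AMP-activated kinase and malonyl-CoA control, 3 were above 0, with a median of -0.09, and Prkaa1, a catalytic subunit of the kinase that inhibits acetyl-CoA carboxylase, had an unadjusted p below 0.05 (-0.24, SE 0.09, adjusted p = 0.453). Trib3 and Cpt1a in that list were at -0.36 (SE 0.22) and -0.12 (SE 0.07). Of 11 tested fasting-induced genes, 3 were above 0, with a median of -0.12. Cpt1a belongs to this list too, and its own estimate is that median, so the lists are not separate readings. Pck1, the phosphoenolpyruvate carboxykinase of glucose production, was at 3506 ± 679 CPM in AdGFP and 2941 ± 914 CPM in AdNAMPT (log2 fold change -0.49, SE 0.17, adjusted p = 0.425 by limma). Igfbp1 and Ppargc1a were at -0.91 (SE 0.49) and -0.27 (SE 0.14). Without AdNAMPT replicate 1, 2 fasting-induced genes were lower at an unadjusted p below 0.05. Fgf21 did not pass the filter.

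Lists for time of day and for sex-biased liver expression were read because both move lipogenic genes in mouse liver. Of 13 tested clock genes, 1 was higher and 2 lower at an unadjusted p below 0.05, with a median of -0.05, and without AdNAMPT replicate 1 the counts were 2 and 2 and the median -0.09. Per2 was at 0.27 (SE 0.10), Nr1d2 at -0.29 (SE 0.08) and Nfil3 at -0.37 (SE 0.14), with adjusted p values of 0.431, 0.312 and 0.459 by limma. Of 9 tested female-biased genes, 1 was above 0 and the median was -0.77, or -0.22 without AdNAMPT replicate 1. Cyp2c69 (-1.45, SE 0.54) and Cyp2b13 (-1.43, SE 0.62) had unadjusted p values below 0.05 and adjusted p values of 0.453 and 0.503 by limma. Male-biased genes, 9 tested, had a median of 0.13, or 0.0018 without AdNAMPT replicate 1, and their mean log2 CPM was 6.93 in that library against 4.33 to 5.10 in the other 7. Without it, 2 of them had an unadjusted p below 0.05, both lower, where none had with it. The 3 with the lowest p were Mup20 (0.74, SE 0.37), Susd4 (-0.78, SE 0.39) and Elovl3 (0.53, SE 0.35). The part of feeding state, time of day or this library's state in the lipogenic values was not tested.

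**Figure D5:**
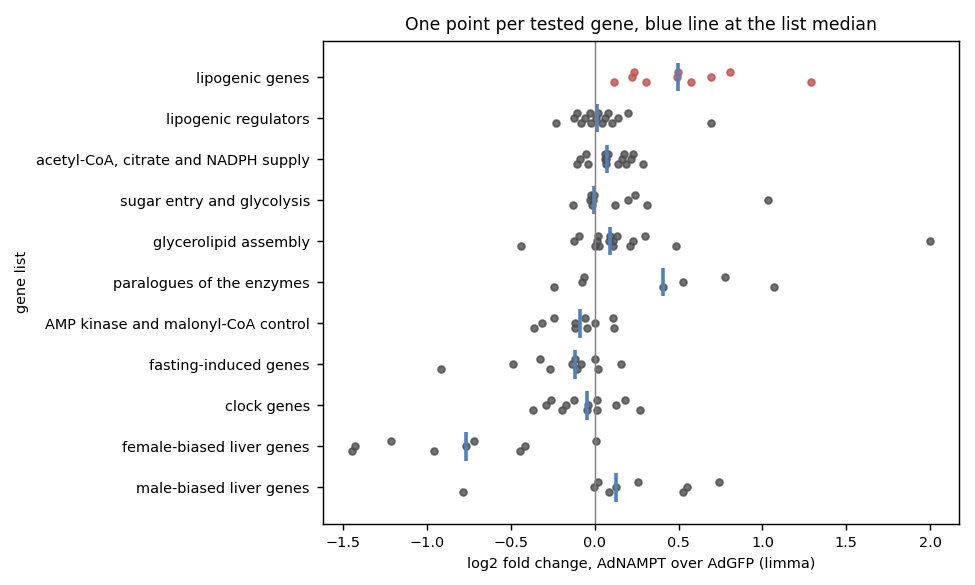
Log2 fold change of AdNAMPT over AdGFP for each tested gene of the lipogenic set and of the 10 lists around it, one point per gene, with a blue line at each list's median. The lipogenic median of 0.49 lies right of the list medians, which run from -0.77 for female-biased genes to 0.41 for paralogues.

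The 5 other genes whose log2 CPM followed the mean standardised level of the 10 genes most closely over the 8 livers were Elovl5, Osbpl3, Pdk1, Acaa1b and Aqp8, with Pearson's r of 0.990, 0.983, 0.982, 0.981 and 0.981 and Spearman's rho of 0.952, 0.976, 0.976, 0.976 and 1. They were picked as the highest of 12270 genes, so the size of r is a property of that choice. Elovl5, an elongase of polyunsaturated and shorter fatty acids, measured 438, 998, 634 and 581 CPM in the 4 AdGFP livers and 294, 749.8, 1256 and 1225 CPM in the 4 AdNAMPT livers. Aqp8, an aquaporin of the hepatocyte, measured 51.1, 94.2, 78.1 and 56.3 CPM in the 4 AdGFP livers and 32.2, 78.5, 210.2 and 159.2 CPM in the 4 AdNAMPT livers. Both had AdNAMPT replicate 3 highest and AdNAMPT replicate 1 lowest, as most of the 10 genes did. Pdk1 encodes a pyruvate dehydrogenase kinase, Acaa1b a peroxisomal thiolase and Osbpl3 an oxysterol-binding protein relative, and their log2 fold changes were 0.24 (SE 0.15), 0.50 (SE 0.33) and 0.42 (SE 0.47). By deviations from the group means, which remove the group difference, Osbpl3 and Elovl5 were again among the closest 5.

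Other cells of the sample were read by markers, since adipose tissue is also rich in lipogenic transcripts. In bulk liver, fewer cells of a type and less RNA per cell cannot be told apart. Adipocyte markers summed to 36.5 to 44.6 CPM in AdGFP and 27.4 to 46.9 CPM in AdNAMPT, nearly all from Fabp4 and Lpl, which other liver cells also express. The defining markers were near 0, with 0 to 4 reads in a library for Adipoq and Lep and 0 to 2 for Plin1. Kupffer cell and macrophage markers summed to 261.6 to 323.3 CPM in AdGFP and 190 to 313.9 CPM in AdNAMPT, with 0 of 8 estimates above 0 and 3 of 8 at an unadjusted p below 0.05, and AdNAMPT replicates 1 and 2 were the lowest. Sums for sinusoidal endothelial, stellate and cholangiocyte markers overlapped between groups, at 232.7 to 289 CPM, 273.6 to 296.4 CPM and 26.5 to 44.3 CPM over the 8 livers. In these lists 0 of 6, 3 of 6 and 1 of 5 markers had an unadjusted p below 0.05 by limma. Each list had 3 estimates above 0. Of all tested genes, 9.69% had such a p. Lymphocyte markers summed to at most 4.72 CPM, and none of the 7 passed the filter. The part of Kupffer or stellate cell content in the lipogenic values was not tested.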

How the data were processed

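Liver RNA was sequenced in 8 mice, with groups and replicate numbers taken from the sample titles. The authors aligned single reads to GRCm38 with STAR, version 2.4.0b per the submitters' processing notes while the study's methods name another version, and assigned reads that aligned once and to a single gene with featureCounts 1.4.5, and whether strand was used is not given in the sources used here. For ribosomal RNA removal the labels give a depletion kit and the methods poly-A selection. Counts were deposited by the authors as whole, unscaled reads. The CPM that the authors deposited are these counts scaled to the library total, and the deposited RPKM divide them by exonic kilobases. CPM and RPKM served to describe levels, and counts were tested.

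Symbols came from GENCODE M21 on the same assembly (40340 of 41388 features), and coordinates are as deposited. As in the study's methods, 355 ribosomal RNA features and genes not above 1 CPM in at least 3 libraries were left out. The remaining 12270 genes were scaled by TMM and fitted with limma's voomWithQualityWeights and eBayes on group alone, and an adjusted p (Benjamini-Hochberg over all tested genes) of at most 0.05 was the threshold. Fold changes are AdNAMPT over AdGFP. Unadjusted p values are from the same fit unless another tool is named. Log2 CPM used a prior count of 2. The fits were tested on simulated counts. Fits ran in R 4.3.3 (edgeR 4.0.16, limma 3.58.1, DESeq2 1.42.0), and summaries in Python 3.11.15 (scipy 1.17.1, numpy 2.4.6, pandas 2.3.3) with plots by matplotlib 3.10.9.

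The 10 genes, the 10 lists and 7 marker lists around them and the alternatives were chosen with earlier results of these data known. In each list the 3 tested genes with the smallest unadjusted p are named, except for 2 genes that are not reported here, and beyond the lists the 5 genes most correlated with the 10. Replicates differed by more than sampling noise (chi-square per degree of freedom 11.3 to 81.8) and were kept apart. Alternatives were edgeR's quasi-likelihood test, the DESeq2 Wald test, no sample weights, other scaling, other filters, a GC correction, the replicate block, each library left out, for which the filter needed 2 libraries, and an exact permutation test.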

Additional observations from a re-analysis of the deposited data

Results flagged for a closer look

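Groups of 4 mice were tested for a mouse far from the other 3 by the gap to its nearest neighbour over the group's range (Dixon's test at the 95% level), for the 10 genes, their ratios and the list means, 62 tests in all. 7 passed, where chance gives about 1 in 20, or 3.1.

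Srebf1 was at 376.8 CPM in AdGFP replicate 2 where the other AdGFP livers were at 275.9 to 290.8 CPM, and at 129.3 CPM in AdNAMPT replicate 1 where the other AdNAMPT livers were at 381.4 to 411.7 CPM. The ratio of Scd1 to Fasn CPM was 8.26 in AdNAMPT replicate 2 where the others had 5.17 to 5.24. The ratio of Acaca to Acacb RPKM was 0.431 in AdGFP replicate 4 where the others had 0.508 to 0.519. The mean log2 CPM of fasting-induced genes was 7.27 in AdGFP replicate 3 where the others had 6.78 to 6.82, and that liver was neither highest nor lowest of its group for 9 of the 10 lipogenic genes. The mean log2 CPM of the AMP kinase and malonyl-CoA list was 4.96 in AdGFP replicate 1 where the others had 4.76 to 4.79. The mean log2 CPM of female-biased liver genes was 1.47 in AdNAMPT replicate 1, the liver lowest for 8 of the 10 genes, where the others had 4.595 to 4.65.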

How the results depend on the processing

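None of the 10 genes was called under any of the 19 alternatives. The exact permutation test, 1 of the 19, gave no adjusted p and so could call none. Of 190 values of a gene under an alternative, 176 kept their direction and 14 changed sign, and the lowest adjusted p was 0.279, for Fasn without AdNAMPT replicate 1. Acly turned to -0.1916 without AdNAMPT replicate 3 and -0.102 without replicate 4, with a highest value of 0.8289 on leaving out a library. Elovl6 turned to -0.08459 without sample weights, -0.04498 as the plain difference in mean log2 CPM of the exact permutation test, -0.08563 without AdGFP replicate 1 and -0.2203 and -0.1872 without AdNAMPT replicates 3 and 4, with a highest of 0.709. Thrsp turned to -0.02393, -0.1517 and -0.1172 without the same 3 libraries, with a highest of 0.6119. Srebf1 turned to -0.1367 without sample weights and -0.1156 in the permutation test. The cause was not tested. Exact two-sided permutation p values ran from 0.429 to 0.971, where the smallest that 70 assignments allow is 0.0286. The count of genes with an unadjusted p below 0.05 ran from 0 to 8 of 10 with a library left out: it was 8 without AdNAMPT replicate 1, 5 when replicate 2 of that group was left out and 2 when AdGFP replicate 2 was. DESeq2 called 75 of all tested genes where limma called 34.

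Whether the replicate numbers pair the mice is not settled by these values. Deviations of same-numbered livers correlated at 0.225, -0.045, 0.213 and 0.005. AdGFP replicates 1 and 3 correlated best with the AdNAMPT liver of the same number. AdGFP replicate 2 correlated best with AdNAMPT replicate 3 (0.239), and AdGFP replicate 4 with AdNAMPT replicate 1 (0.095). With the replicate block 1 of the 10 genes, Scd1, had an unadjusted p below 0.05 (log2 fold change 0.96), and likewise 1 with a GC correction and the block, while Srebf1 turned to -0.01325 with the block and -0.09138 with both. Among the 5 genes most like the 10, 2 were shared when deviations from group means were used.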

Other observations

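At the other end of the order of livers, 3 genes named after their values were seen ran opposite to the 10 lipogenic genes most closely over the 8 livers, as a description picked from all tested genes: Hsd3b2, a hydroxysteroid dehydrogenase (Pearson's r -0.995), Mug1, a murinoglobulin secreted by the liver (-0.989), and Serpina1c, an alpha-1-antitrypsin (-0.985). Serpina1c measured 910.3, 542, 759 and 881 CPM in the 4 AdGFP livers and 1613, 823, 473 and 568 CPM in the 4 AdNAMPT livers. Serpina1c was thus highest in AdNAMPT replicate 1, the liver lowest for most lipogenic genes, and lowest in AdNAMPT replicate 3, the liver highest for most of them. Reads shared with the other Serpina1 genes are absent from its unique counts.

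Hnf4a, the hepatocyte nuclear receptor among the lipogenic regulators, was also named after its values were seen. It measured 593.7, 489.5, 614 and 635 CPM in the 4 AdGFP livers and 966, 647, 530.4 and 545 CPM in the 4 AdNAMPT livers, again highest in AdNAMPT replicate 1, with a log2 fold change of -0.02 (SE 0.13, adjusted p = 0.978 by limma). Insig1, which retains SREBP precursors in the endoplasmic reticulum, measured 338, 386, 272 and 326 CPM in the 4 AdGFP livers and 152.7, 349, 382 and 492 CPM in the 4 AdNAMPT livers, lowest in that same liver (log2 fold change 0.02, SE 0.23, adjusted p = 0.988).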
